A study of Mus musculus with 2 samples.

Results

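Proteoglycans are core proteins of the extracellular matrix, or of the cell surface, that carry glycosaminoglycan chains, and 10 genes of this kind were followed through mouse cells at day 16 of reprogramming to induced pluripotency. They were the small leucine-rich members Dcn, Lum, Bgn, Fmod, Ogn, Prelp, Aspn and Podn, the hyaluronan-binding proteoglycan gene Vcan and the basement membrane gene Hspg2. They were chosen by name, and all 10 were among the 17408 genes of the deposited table. The study induced reprogramming of STEMCCA mouse embryonic fibroblasts with doxycycline in medium with LIF and ascorbic acid, where STEMCCA is a cassette of Pou5f1, Sox2, Klf4 and Myc. Cells were detached with trypsin and profiled without sorting by droplet 3′ single-cell RNA-seq, in which each captured RNA molecule has a unique molecular identifier (UMI). There were 2 libraries of 1 group, called replicate 1 and replicate 2, and no untreated library was analysed here. The study's text says that its day 16 droplet data came from 2 separate STEMCCA mouse systems, and the labels do not say which library used which, nor whether they were separate cultures or animals. P-values therefore measure only how far differences between groups of cells varied between these libraries, with a spread drawn in part from all genes. That variation may be technical and may include the mouse system.

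Small leucine-rich proteoglycans bind collagen fibrils, and several of them tune how thick and how regularly spaced the fibrils become. They are made by fibroblasts, chondrocytes, tendon cells and other mesenchymal cells, and mouse embryonic fibroblasts are a usual source. During reprogramming, cells that succeed lose the mesenchymal programme, while many others keep parts of it or take other routes.

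Replicate 1 held 3109 cells and 54145377 UMIs, and replicate 2 held 3914 cells and 64654306 UMIs, with medians of 15625 and 14292 UMIs per cell. The libraries shared 12 cell barcodes, and no doublets were removed here. Levels are mean UMIs per 10000 UMIs of a cell, and counting intervals and limits cover counting error only. Cells were grouped into 17 clusters on genes other than the members, and 13 clusters with at least 30 cells in both libraries are called states. They are named by leading genes. The Dppa5a/Utf1 state (cluster 7) was pluripotent-like, with 9 of 10 pluripotency markers raised, and the Mylk/Prss23 (cluster 6) and Spp1/Mmp3 (cluster 9) states were fibroblast-like, with 11 and 9 of 11 fibroblast markers raised. The Spp1/Mmp3 state also had 2 of 5 cartilage, 2 of 4 bone and 3 of 6 senescence markers raised, and Col10a1 and Mmp13, which hypertrophic chondrocytes make, were among its leading genes. The other 10 states had no class name. One of these, the Mest/Cthrc1 state (cluster 11), had 7 of 11 fibroblast, 3 of 5 tendon and 2 of 5 cartilage markers raised, and it stayed unnamed because cartilage markers outnumbered fibroblast markers among its 10 leading genes. The cells of a state in a library share their library, and the states rest on other genes of the same cells, so they are not independent of the members' expression.

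Each member was compared first between the 537 pluripotent-like cells and all 6486 other cells. All 9 members that passed the filter of a mean of 0.1 over all cells were lower in pluripotent-like cells (limma with Benjamini-Hochberg adjustment over 7131 genes, adjusted p between 1.09e-08 and 3.87e-05). Differences are on the scale of log2(level + 0.1), which understates the change of low genes. Of all genes tested, 46.2% were lower and 31.5% were higher. The median log2 difference was -2.55 for the 9 members and -0.16 for all genes tested. Lum did not pass the filter. The size of the adjusted p-values depended strongly on this filter, since the fit drew most of its estimate of spread from all genes together.

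Bgn encodes biglycan, which carries chondroitin or dermatan sulfate chains. Its level was 16.2 and 13.5 in the other cells of replicate 1 and replicate 2, against 0.734 and 0.687 in pluripotent-like cells. The log2 difference was -4.20 (SE 0.09). For comparison, it was at 0.467 in the 68 epithelial-like cells of replicate 1. The pluripotent-like cells were also deeper, with medians of 28768 and 26097 UMIs against 15214 and 13651 in the others and 21862 in the epithelial-like cells. With every cell thinned to 3000 UMIs, 13.01% and 15.6% of pluripotent-like cells had a Bgn UMI, against 72.1% and 69.3% of the other cells. The exact 95% intervals of the pluripotent-like shares were 8.02% to 19.6% and 12.2% to 19.6%. Both overlapped with that of the epithelial-like cells of replicate 1 (7.35%, 2.43% to 16.3%). This overlap cannot decide if the remaining Bgn UMIs were expression, since the epithelial-like cells were not shown to be free of Bgn. Without thinning the shares were 69.2% and 61.1% against 89.4% and 87.9%.

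**Figure D1:**
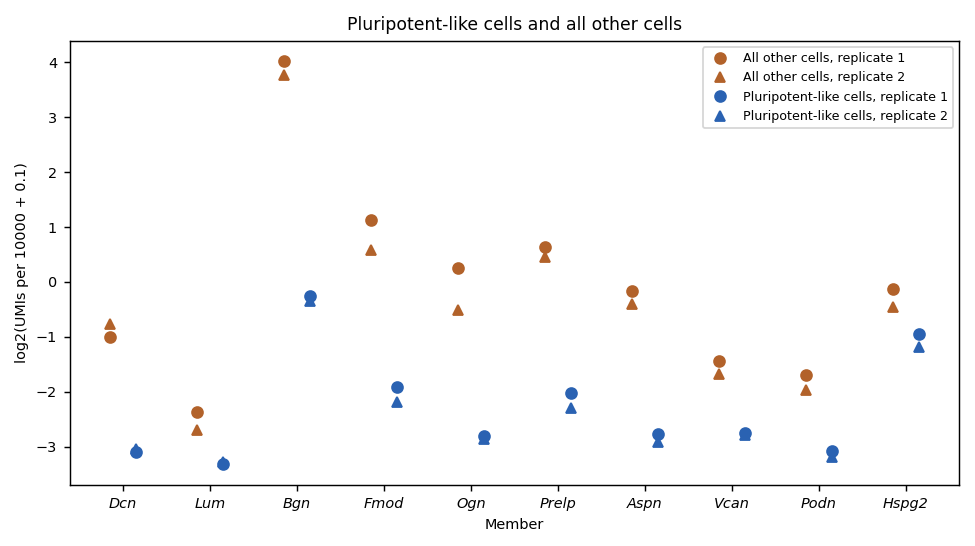
Level of each member as log2(UMIs per 10000 + 0.1) in all other cells (brown) and pluripotent-like cells (blue), with circles for replicate 1 and triangles for replicate 2. Both blue points lie under both brown points for every member, with a log2 difference of -4.20 for Bgn and -0.78 for Hspg2. Among all genes tested 46.2% were called lower in pluripotent-like cells, and how many part in this way was not counted. The order of the gaps depends on the 0.1 that was added.

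The other fibril-associated members were low in pluripotent-like cells too. Dcn, which encodes decorin, a close relative of biglycan, was at 0.399 and 0.489 in the other cells and at 0.0170 and 0.0209 in pluripotent-like cells (log2 difference -2.19, SE 0.09). Its level in the other cells was 23.4 times that in pluripotent-like cells in either library, and its log2 difference was -3.97 with a pseudocount of 0.01 and -0.50 with 1. In replicate 2, 41 cells of cluster 14 held 495 of the 1993 Dcn UMIs of the other cells. Without the 4 clusters under 30 cells in a library, chosen after seeing the data, the log2 difference of Dcn was -2.03. Fmod, which encodes the keratan sulfate proteoglycan fibromodulin, was at 2.07 and 1.40 against 0.166 and 0.119 (-2.90, SE 0.10). Prelp, whose product binds collagen and heparan sulfate, was at 1.46 and 1.26 against 0.145 and 0.104 (-2.70, SE 0.09). None of these groups overlapped between the classes. Of all genes tested 46.2% were called lower in pluripotent-like cells, and how many of all genes had no overlap was not counted.

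Ogn, which encodes osteoglycin (mimecan), was at 1.10 and 0.599 in the other cells and at 0.0429 and 0.0372 in pluripotent-like cells (log2 difference -2.71, SE 0.15). Aspn encodes asporin, a member that binds collagen and TGF-beta, and was at 0.788 and 0.652 against 0.0458 and 0.0327 (-2.55, SE 0.09). Podn, which encodes podocan, was at 0.210 and 0.155 against 0.0191 and 0.00925 (-1.30, SE 0.09). Lum, which encodes lumican, was at 0.0928 and 0.054 in the other cells. In pluripotent-like cells it had 0 UMIs in replicate 1 and 2 UMIs in replicate 2. Set against the limit of 3 counts in replicate 1, Lum was at least 13.1-fold lower there. It was not tested at the main filter.

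The members outside the small leucine-rich family were lower in pluripotent-like cells as well. Vcan encodes versican, a large chondroitin sulfate proteoglycan of loose matrix, and was at 0.269 and 0.214 in the other cells and at 0.0483 and 0.0450 in pluripotent-like cells (log2 difference -1.21, SE 0.09). Hspg2 encodes perlecan, a heparan sulfate proteoglycan that basement membranes of many cell types hold, and was at 0.814 and 0.633 against 0.416 and 0.339 (-0.78, SE 0.09). The other cells therefore had 1.96 and 1.87 times the Hspg2 level of pluripotent-like cells, against 22.1 and 19.6 times for Bgn. With a pseudocount of 1 the log2 difference was -0.32 for Hspg2, -0.25 for Vcan and -0.22 for Podn. After thinning, 10.96% and 7.93% of pluripotent-like cells had an Hspg2 UMI, against 19.6% and 16.3% of the others and 5.88% (exact 95% interval 1.63% to 14.4%) of the epithelial-like cells of replicate 1. Without thinning the shares were 63.7% and 54.0% against 59.6% and 50.9%, which is the opposite order, and the pluripotent-like cells had the larger depth.

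Among the 12 states that were not pluripotent-like, all 9 tested members varied (limma F test, adjusted p between 5.17e-15 and 9.83e-06), and so did 86.2% of all genes tested. The median range between the highest and the lowest state was 3.70 on the log2 scale for the members and 0.84 for all genes tested. Each state was then set against the mean of the other 11. Of 108 pairs of member and state, 45 were higher and 45 lower at an adjusted p under 0.05, against 20.3% and 21.4% of the pairs over all genes.

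**Figure D2:**
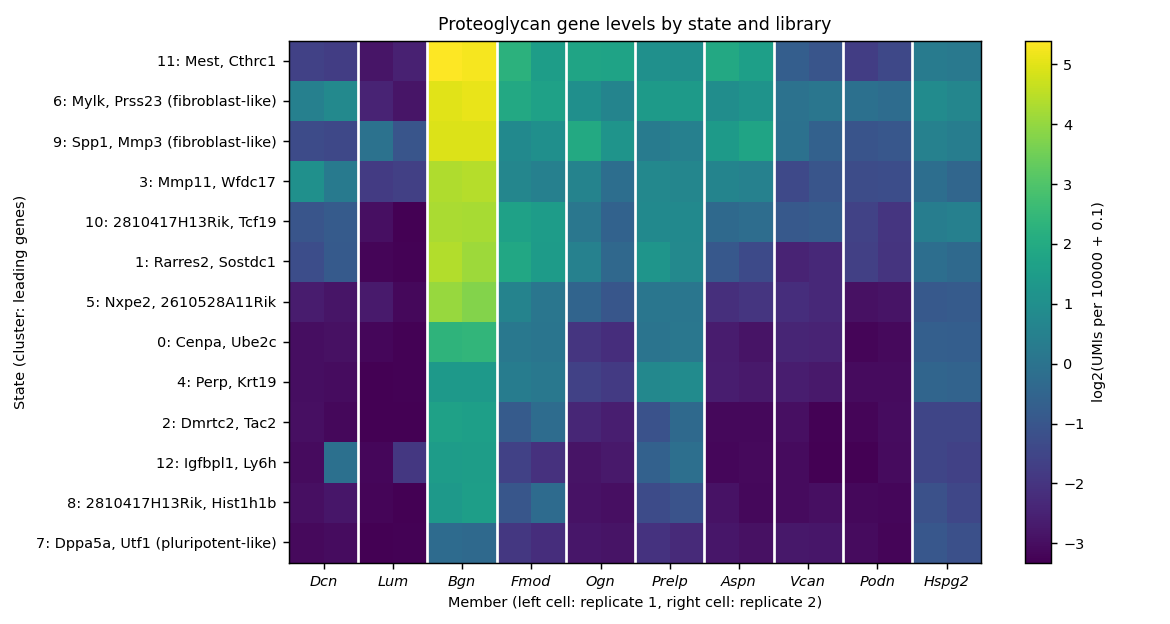
Level of the 10 members (columns, replicate 1 left and replicate 2 right) in 13 states (rows, ordered by the summed level of the members), as log2(UMIs per 10000 + 0.1) on the colour scale. The Mest/Cthrc1, Mylk/Prss23 and Spp1/Mmp3 states are at the top and the pluripotent-like state is at the bottom.

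All 9 tested members were higher in the Mylk/Prss23 state, 8 were higher in the Mest/Cthrc1 state and 8 in the Tcf19/Tk1 state (cluster 10), and none was lower in these. Of all genes tested, 28.8%, 21.4% and 33.8% were higher in these states. All 9 were lower in the Dmrtc2/Tac2 (cluster 2) and Hist1h1b/Neil3 (cluster 8) states, and 8 were lower in the Igfbpl1/Ly6h state (cluster 12), as were 34.85%, 31.5% and 32% of all genes. Cell cycle markers did not go with the members in 1 direction. The Tcf19/Tk1, Hist1h1b/Neil3 and Cenpa/Ube2c (cluster 0) states had 6, 5 and 5 of 7 cycling markers raised, yet the first had 8 members higher and the others had 9 and 7 members lower. Of all genes tested, 15.0% were lower and 26.1% were higher in the Cenpa/Ube2c state. The Tcf19/Tk1 state also had 4 of 11 fibroblast markers raised, and the Hist1h1b/Neil3 and Cenpa/Ube2c states had 0. The part of these cell-type markers in the members' levels was not tested.

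Bgn was at 41.9 and 38.2 in the Mest/Cthrc1 state, 32.0 and 33.9 in the Mylk/Prss23 state and 30.2 and 30.6 in the Spp1/Mmp3 state. At the low end it was at 2.52 and 2.52 in the Perp/Krt19 state (cluster 4). Its libraries overlapped in 3 of the 12 steps from 1 state to the next lower one, and was called in all 12 non-pluripotent states, 7 higher and 5 lower.

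Aspn and Ogn had the widest ranges of the tested members. Aspn was at 3.73 and 2.95 in the Mest/Cthrc1 state and 2.61 and 3.31 in the Spp1/Mmp3 state, which overlap, and at 0.0140 and 0.0145 in the Dmrtc2/Tac2 state. Ogn was at 3.27 and 3.19 in the Mest/Cthrc1 state and 3.798 and 2.17 in the Spp1/Mmp3 state, which overlap too, and at 0.0338 and 0.0294 in the Hist1h1b/Neil3 state. The members parted in the Rarres2/Sostdc1 state (cluster 1), where Ogn was 0.86 above the other states on the log2 scale (adjusted p = 0.000229) and Aspn differed by -0.05 (adjusted p = 0.772, limma). In the Nxpe2/Aldoc state (cluster 5) Aspn was 1.06 lower on this scale (adjusted p = 9.86e-07) and Ogn differed by -0.02 (adjusted p = 0.915).

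By the mean of the libraries, Fmod was highest in the Mest/Cthrc1 state and Prelp in the Mylk/Prss23 state. Fmod was at 4.70 and 2.80 in the Mest/Cthrc1 state, 3.73 and 3.05 in the Mylk/Prss23 state and 3.62 and 2.63 in the Rarres2/Sostdc1 state, and these neighbours overlapped. Prelp was at 2.57 and 2.59 in the Mylk/Prss23 state and 1.97 and 1.92 in the Mest/Cthrc1 state. In the Perp/Krt19 state Prelp was at 1.56 and 1.73, which is 0.51 above the other states on the log2 scale (SE 0.14, limma adjusted p = 0.00759), while Bgn was 2.17 lower there (adjusted p = 4.11e-12). Prelp was the 1 member of 9 called higher in that state, against 19.6% of all genes tested, and 6 were called lower, against 17.0%. In that state 2 of 11 epithelial markers were raised.

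Vcan, Podn and Hspg2 were each highest in the Mylk/Prss23 state, which also had 8 of 8 myofibroblast or smooth muscle markers raised. Vcan was at 0.864 and 0.983 there, Podn at 0.834 and 0.746 and Hspg2 at 1.73 and 1.49. The libraries did not overlap with the next state, the Spp1/Mmp3 state, where Vcan was at 0.853 and 0.551, Podn at 0.386 and 0.414 and Hspg2 at 1.33 and 1.197. At the low end, Hspg2 was at 0.252 and 0.222 in the Igfbpl1/Ly6h state and at 0.257 and 0.252 in the Dmrtc2/Tac2 state. Vcan had 2 UMIs in replicate 1 and 0 in replicate 2 of the Igfbpl1/Ly6h state, where 0 allows a level of up to 0.0568. Podn had 0 UMIs in replicate 1, which allows up to 0.0310, and 1 in replicate 2. The order of the low states was not resolved for either gene.

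By the mean of the libraries, Dcn and Lum were highest in states that were highest for no other member. Dcn was at 1.96 and 1.10 in the Mmp11/Wfdc17 state (cluster 3) and at 1.30 and 1.60 in the Mylk/Prss23 state, which overlap, and the next state, Tcf19/Tk1, was at 0.386 and 0.472. It was called higher in those first 2 states only, by 2.53 and 2.50 on the log2 scale (limma adjusted p = 5.32e-05 and 5.92e-05). In the Mest/Cthrc1 state, where Bgn was highest, Dcn was at 0.225 and 0.201 and differed from the other states by -0.01 (adjusted p = 0.986). Lum was highest in the Spp1/Mmp3 state at 0.873 and 0.388, followed by the Mmp11/Wfdc17 state at 0.188 and 0.213. It was near or at 0 in most others.

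Over all 7023 cells, including cluster 14, which was not among the states, Dcn and Lum UMIs were concentrated in few cells. The 70 cells with the most UMIs of a gene, 1% of all cells, held 40.5% of Dcn UMIs and 70.8% of Lum UMIs, against 5.72% of Bgn UMIs. Dcn had a UMI in 1035 cells and Lum in 202 of 7023. After thinning, 17.9% and 16.5% of cells in the Mmp11/Wfdc17 state and 22.2% and 25.3% in the Mylk/Prss23 state had a Dcn UMI, against 0.685% and 0.256% in the pluripotent-like state, and without thinning 31.6% and 26.7%, 46.8% and 52.6%, and 3.42% and 4.35%. In replicate 2 of the Igfbpl1/Ly6h state, 1 cell held 47 of 49 Dcn UMIs and 10 of 10 Lum UMIs. The Dcn level there was 0.826 with that cell and 0.0392 without it, and Dcn differed from the other states by 0.09 (adjusted p = 0.877) with it and by -1.28 without it (adjusted p = 1.69e-06).

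**Figure D3:**
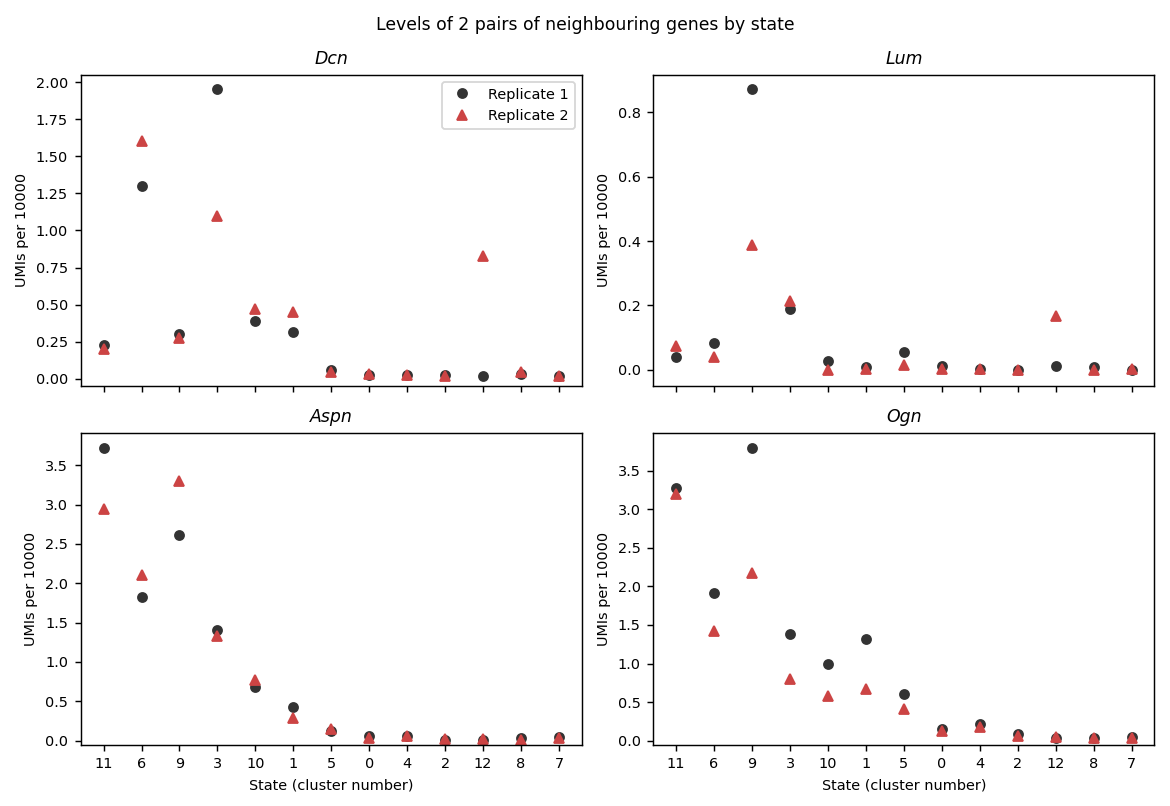
Level (UMIs per 10000, linear axis) of Dcn, Lum, Aspn and Ogn in 13 states in the order of the summed member level, with circles for replicate 1 and triangles for replicate 2. Aspn and Ogn are high in clusters 11, 9 and 6, whereas Dcn is high in clusters 3 and 6 and Lum in cluster 9, and the lone Dcn point of 0.826 in cluster 12 comes from 1 cell.

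Several members are neighbours in the genome, which allowed their levels to be set against their places (GRCm38, GENCODE M21). Aspn (chr13:49544443-49567565) and Ogn (chr13:49608046-49624501) lie on the plus strand of chromosome 13, with 40.5 kb between them. Over 24 profiles, 12 states in 2 libraries, their log2 levels had a correlation of 0.95, the highest of 45 pairs of members. Dcn (chr10:97479609-97518143) and Lum (chr10:97565128-97572703) lie 47.0 kb apart on the plus strand of chromosome 10, and their correlation was 0.48, ranked 40 of 45. For the profile of the Igfbpl1/Ly6h state in replicate 2, 1 cell held 47 of 49 Dcn UMIs and 10 of 10 Lum UMIs. The correlation of Dcn and Lum without that cell was not computed. Prelp (chr1:133910304-133921414, minus strand) and Fmod (chr1:134037254-134048277, plus strand) lie 116 kb apart, with a correlation of 0.81 and rank 20. The median over all pairs was 0.75. The profiles share libraries and depth, so these are descriptions with no test.

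The same cells could hold both Dcn and Lum. The share of cells with Dcn was therefore taken apart by Lum, in states with at least 10 cells of each kind after thinning. In the Mmp11/Wfdc17 state of replicate 2, 8 of 12 thinned cells with Lum had Dcn (66.7%, exact 95% interval 34.9% to 90.1%), against 69 of 456 without Lum (15.1%, 11.97% to 18.8%). In the Spp1/Mmp3 state the shares were 20.0% (7.71% to 38.6%) against 6.36% (3.22% to 11.1%) in replicate 1 and 36.4% (10.9% to 69.2%) against 2.88% (0.599% to 8.20%) in replicate 2. The intervals overlapped in replicate 1 of that state and not in the other 2 comparisons. Cells are not replicates, and no test was made.

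The sequences before the start sites are shown for the neighbours with the closest levels, Aspn and Ogn, and for Hspg2, which had the smallest ratio of levels between the other and the pluripotent-like cells. RefSeq (GRCm38.p6) gave 9 windows for 8 members and none for Dcn or Lum. The 250 bases before the start are printed 5′ to 3′ on the gene's strand. Capitals mark TATAAA and GGAATG on either strand, the letters of a TATA box and of the TEAD motif. They lie at chr13:49544193-49544442 for Aspn, chr13:49607765-49608014 for Ogn and chr4:137468553-137468802 for Hspg2, all on the plus strand.
Aspn: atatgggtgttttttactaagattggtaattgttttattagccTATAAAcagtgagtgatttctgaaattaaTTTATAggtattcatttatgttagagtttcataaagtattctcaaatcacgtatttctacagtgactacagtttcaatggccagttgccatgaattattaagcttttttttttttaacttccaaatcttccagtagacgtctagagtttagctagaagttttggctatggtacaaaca
Ogn: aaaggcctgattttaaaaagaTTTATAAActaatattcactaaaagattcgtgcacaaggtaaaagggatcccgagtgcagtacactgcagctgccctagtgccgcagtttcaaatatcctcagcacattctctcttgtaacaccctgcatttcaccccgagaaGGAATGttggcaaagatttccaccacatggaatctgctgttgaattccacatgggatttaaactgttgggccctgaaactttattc
Hspg2: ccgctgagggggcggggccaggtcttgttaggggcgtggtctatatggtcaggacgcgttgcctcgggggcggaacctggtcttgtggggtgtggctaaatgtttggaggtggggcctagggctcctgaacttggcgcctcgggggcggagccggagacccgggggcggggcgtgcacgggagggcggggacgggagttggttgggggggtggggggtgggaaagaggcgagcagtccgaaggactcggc

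The windows differed in base composition. G and C made up 30% of the Aspn window, 42% of the Ogn window and 70% of the Hspg2 window, with 2, 4 and 20 CpG dinucleotides, against medians of 52.4% and 6 over 32851 windows of that length. TATAAA was in the Aspn and Ogn windows and in 12.4% of all windows. GGAATG was in the Ogn window alone among the 9, and in 12.6% of all. TGANTCA, the letters of the AP-1 motif, was in none of the 9 and in 6.75% of all. A match is only a match of letters, and the Ogn start given by RefSeq was not found in the GENCODE transcripts.

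The genes whose levels were most like each member over 26 profiles (13 states in 2 libraries, log2 levels, Pearson correlation, tested genes only) were found for all 10. For Bgn they were Serpinf1 (0.98), Osmr (0.97) and Casp12 (0.97). For Aspn they were Thbs2, Synpo and Mrc2 (0.97 each), and for Ogn Ldlrad4, Gng11 and Thbs2 (0.96 each). Fmod was most like Acvr1, Sept11 and Igfbp3 (0.95 each), and the genes named for Prelp were Cald1 (0.96) and Dynlt3 (0.94). For Vcan they were Mrc2, Adam33 and Col8a1 (0.96 each), for Podn Adamts2, Setbp1 and Adam33 (0.96 each), and for Hspg2 Filip1l, Thbs1 and Col8a1 (0.97 to 0.98). Dcn and Lum had lower highest correlations, with Fam65a (0.90), Zcchc6 (0.89) and Tril (0.88) for Dcn and Nrep (0.89), Fndc3a (0.86) and Errfi1 (0.85) for Lum. Over the 12 states the correlation with the mean of 11 fibroblast markers was 0.98 for Vcan, 0.96 for Aspn and Hspg2, 0.70 for Dcn and 0.56 for Lum. Other marker lists moved with the members too. With the mean of 4 bone markers it was 0.87 for Lum, with 6 senescence markers 0.88 for Aspn, Vcan and Hspg2, 0.85 for Ogn and 0.70 for Lum, and with 5 tendon markers 0.88 for Aspn, 0.87 for Ogn, 0.83 for Bgn and 0.63 for Lum. The part of these lists in the members' levels was not tested.

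Genes that build, decorate or cleave proteoglycans were read in the same comparison of pluripotent-like with other cells. Of 105 genes in 7 lists, 95 were in the table and 40 passed the filter, of which 38 were lower in pluripotent-like cells, 1 was higher and 1 did not pass the test, with a median log2 difference of -1.04. Over all 7131 genes tested, 46.2% were lower and 31.5% were higher, with a median of -0.16. None of the 7 other small leucine-rich genes or the 8 hyalectan and link protein genes in the table passed the filter. All 9 tested enzymes for the linker and for chondroitin or dermatan sulfate chains were lower, among them Csgalnact1, which starts chondroitin chains (-1.48), and the sulfotransferases Chst12 (-1.37) and Chst15 (-1.17). Of 9 heparan sulfate genes 8 were lower, led by the extracellular sulfatase Sulf1 (-2.70), then Hs6st2 (-2.40) and Extl3 (-1.04).

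Both tested keratan sulfate enzymes, B4galt1 (-1.0) and B4galt4 (-0.65), were lower, and so were all 5 tested genes of the list of cleaving and processing proteins. Of these the metalloprotease inhibitor Timp3 (-3.69) and the procollagen enhancer Pcolce (-2.37) are no proteases, and Adamts5 (-2.08) cleaves hyalectans. Of 15 basement membrane and cell surface genes 14 were lower, led by Cd44 (-2.90), Col15a1 (-1.93) and Sdc2 (-1.67). Col18a1, a basement membrane collagen with heparan sulfate chains, was the 1 gene of the lists that was higher, at 0.352 and 0.410 in pluripotent-like cells against 0.102 and 0.106 in the others (log2 difference 1.24, SE 0.09, limma adjusted p = 2.40e-06).

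Between the libraries, 9 of 10 members were lower in replicate 2 over all cells. The median log2 ratio was -0.33 for the members and -0.06 for all genes tested, so all genes leaned the same way. How many of all genes were lower was not counted. On the log2(level + 0.1) scale 2 members were at least 1.5-fold lower, as were 1.25% of all genes tested. These were Ogn, at 1.05 in replicate 1 and 0.542 in replicate 2 (log2 ratio -0.84), and Fmod, at 1.98 and 1.27 (-0.60). Dcn was the exception, at 0.381 and 0.442 (0.17), and this rests on 41 cells of replicate 2, the Trf/Saa3 cluster (cluster 14). Without the cells of that cluster Dcn was at 0.381 and 0.326 (log2 ratio -0.17). The libraries differed in their states: the Rarres2/Sostdc1 state made up 16.4% of replicate 1 and 7.13% of replicate 2, and the Dmrtc2/Tac2 state, where all tested members were low, 5.31% and 14.9%. With equal weight for each of the 13 states the log2 ratio was -0.46 for Ogn, -0.27 for Fmod and -0.05 for Bgn. Ogn was lower in replicate 2 in 12 of 13 states, and Fmod in 10. With 1 library on each side there is no test.

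**Figure D4:**
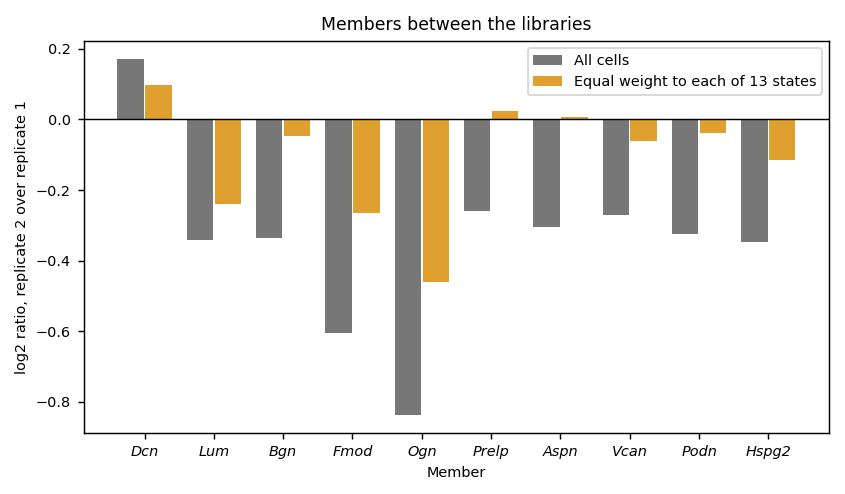
Log2 ratio of the level + 0.1 in replicate 2 over replicate 1 for each member, over all cells (grey) and with equal weight for each of 13 states (yellow). Ogn has the lowest ratio both ways, -0.84 and -0.46, and every ratio lies closer to 0 with equal weights.

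Bgn is on the X chromosome (chrX:73483602-73495933, plus strand), so its level was also compared by UMIs of the Y-linked genes Ddx3y, Eif2s3y, Kdm5d and Uty. Outside the pluripotent-like state, Bgn was at 16.9 in the 1793 cells of replicate 1 with 0 such UMIs and at 14.1 in the 636 cells with at least 2. In replicate 2 it was at 13.03 in 2176 cells and at 13.8 in 722 cells. The ratio was 0.835 in replicate 1 and 1.06 in replicate 2, so the libraries went opposite ways. Within states it lay between 0.741 and 1.28, with a median of 1.0 over 23 values. Cells with at least 2 of these UMIs were deeper, with medians of 18532.5 and 16642 UMIs against 14374 and 13062.5.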

How the data were processed

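Droplet 3′ single-cell RNA-seq of 2 libraries was used. Per the labels, Cell Ranger 2.1.1 and Seurat were run on mm10. The deposited values are the natural log of 1 plus UMIs per 10000 UMIs of the cell, normalised by the authors. All values were whole multiples of 1 UMI within 0.01, so UMIs were recovered. Cells had 1508 to 5987 genes and at most 8.99% mitochondrial UMIs, in the range of the filters in the study's methods. The sources used here do not say if doublets had been taken out, and none were taken out here.

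Cells were clustered with scanpy 1.11.5 and Leiden (leidenalg 0.10.2, resolution 1) on 2000 variable genes, 30 components and 15 neighbours, without the members, the pathway lists, X- and Y-linked genes and the reprogramming factors (704 genes). A cluster was named for the marker list of which the largest share was raised 2-fold (at least 50%, and at least 3 markers). It stayed unnamed if its 10 leading genes held more markers of another class, or if it was far shallower than its library and no marker of its class led it. Profiles were means over cells per state and library, tested as log2(mean + 0.1) with limma 3.58.1 (R 4.3.3), with a library term and p-values adjusted (Benjamini-Hochberg) across the 7131 genes with a mean of at least 0.1. For the contrasts of a state with the other states, the adjustment was across all 85572 pairs of gene and state. The fits treat all profiles as equally precise, although small states are noisier. On simulated data the share of unchanged genes among the calls was above the nominal threshold for the pluripotent-like comparison and for the F test, so their adjusted p-values are somewhat too small. Members, lists and tests were chosen with earlier results of these data known. Named genes were all members, the 3 genes most like each and, per list, the 3 largest called changes in each direction. 1 gene that this rule names is not reported here.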

Additional observations from a re-analysis of the deposited data

Results flagged for a closer look

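The 41 cells of the Trf/Saa3 cluster in replicate 2 entered none of the comparisons between states, since replicate 1 had 1 such cell. Their Dcn level was 11.4, above the highest level of any state in the comparisons (1.96), and drew attention as a signal outside the main measurement. A Dcn UMI was in 40 of the 41 cells, with a median of 6 and at most 128 per cell, and the level was 8.98 without the highest cell. The cluster held 14.1% of all Dcn UMIs and 0.598% of the cells. Its Bgn level was 16.5, Hspg2 was at 1.40, and Aspn had 1 UMI.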

How the results depend on the processing

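The counts of members lower in pluripotent-like cells (9 of 9 tested) and varying over states (9 of 9) were the same at pseudocounts of 0.01 and 1, with other clusterings, with summed UMIs and with no term for library. They were 6 of 6 at a mean of at least 0.5 and 10 of 10 with no filter. The adjusted p-values moved far more than the counts. For Bgn in pluripotent-like cells the limma value was 1.09e-08 in the main fit, 0.0053 with no filter and 3.77e-239 at a mean of at least 0.5. The pluripotent-like cells were the same 537 at every clustering. Of the pathway genes, 38 of 40 tested were lower, against 8 of 8 at a mean of at least 0.5 and 52 of 95 with no filter. The filter changes which genes are tested, and why a smaller share was lower with no filter was not tested. At least 1.5-fold lower in replicate 2 were 2 members, but 3 with a pseudocount of 0.01 (Lum at -0.74), 0 with equal weight to each state, 0 with a pseudocount of 1 and 1 with summed UMIs, and the cause was not tested. With equal weights the log2 ratio turned to 0.024 for Prelp and to 0.0059 for Aspn. Chosen after seeing the data, leaving out cluster 14 turned Dcn to -0.17, and equal weights without the 1 Dcn-rich cell gave 0 members at least 1.5-fold lower and turned Dcn to -0.092, Prelp to 0.025 and Aspn to 0.0060. Of 90 called pairs of member and state, 84 to 90 kept their call in the alternatives with the same states. In either library alone every member called lower in pluripotent-like cells was lower. Leaving out the 1 Dcn-rich cell, added after seeing the data, changed the Dcn call in the Igfbpl1/Ly6h state and gave 44.4% of pairs higher and 42.6% lower, against 41.7% each. The library term compares cells within a library, and without it 9 of 9 members and 37 of 40 pathway genes were lower. Depth limits Lum and Podn most, with 511 and 1431 UMIs in all.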
